A study of Homo sapiens with 2 samples.

Results

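The hormones of the pancreatic islet are encoded by INS (insulin), IAPP (islet amyloid polypeptide, or amylin), GCG (glucagon), SST (somatostatin), GHRL (ghrelin), PPY (pancreatic polypeptide) and PYY (peptide YY). The 7 genes were taken by symbol from the deposited expression tables, in which all 7 were found among 55797 genes. RNA-seq had been run on H1 human embryonic stem cells (hESCs), an established line, that were differentiated to Stage 6, a mixed culture in which some cells express insulin. The culture was divided into a live sample, lysed unfixed with the RNeasy protocol, and a processed sample carried through MARIS, a method for recovering RNA from cells sorted on intracellular antibody staining. Processed cells were fixed in 4% paraformaldehyde, permeabilized, stained with antibodies and passed through a mock sort in which every cell was kept, and their RNA was recovered with a modified RecoverAll kit. Each condition has 1 library from 1 line, so differences have no replicate check and no test between conditions was possible. The comparison asks whether fixation, staining and sorting leave the measured transcript levels as they were in live cells.

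In the islet, each hormone is made mainly by its own endocrine cell type: insulin and amylin by β cells, glucagon by α cells, somatostatin by δ cells, ghrelin by ε cells and pancreatic polypeptide by PP cells. Insulin lowers blood glucose, glucagon raises it, and somatostatin restrains the secretion of both. All are cut from larger precursors, packed into dense-core granules and released on demand. Cells of the fetal pancreas, and hormone-positive cells made from hESCs, can express more than 1 of these hormones. The libraries were made from whole cultures, so fewer cells of a type and less RNA per cell cannot be told apart.

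Promoter sequences of 5 of the genes are shown to place the levels below beside the control regions of the genes they belong to. Each is the RefSeq window from 250 bases before to 50 after the annotated start, on the gene's own strand, in GRCh38.p14: INS at chr11:2161160-2161459 (minus strand), IAPP at chr12:21372652-21372951 (plus strand), GCG at chr2:162152198-162152497, SST at chr3:187670345-187670644 and GHRL at chr3:10292898-10293197 (the last 3 on the minus strand). Capitals mark TATAA (the core of a TATA box, read on the gene's strand), TAAT or its complement ATTA (the core bound by homeodomain factors such as PDX1) and TGACGTCA (the cyclic AMP response element).
INS: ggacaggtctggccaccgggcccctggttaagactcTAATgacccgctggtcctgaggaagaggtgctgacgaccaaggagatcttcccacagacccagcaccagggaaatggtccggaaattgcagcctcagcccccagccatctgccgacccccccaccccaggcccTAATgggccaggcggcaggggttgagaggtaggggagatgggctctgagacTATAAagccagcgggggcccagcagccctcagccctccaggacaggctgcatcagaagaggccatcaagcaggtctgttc
IAPP: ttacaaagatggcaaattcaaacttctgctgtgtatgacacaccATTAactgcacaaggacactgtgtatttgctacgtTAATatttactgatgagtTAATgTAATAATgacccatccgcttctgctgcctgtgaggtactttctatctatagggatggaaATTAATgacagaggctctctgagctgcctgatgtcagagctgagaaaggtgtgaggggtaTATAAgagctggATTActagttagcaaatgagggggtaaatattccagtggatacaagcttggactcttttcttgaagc
GCG: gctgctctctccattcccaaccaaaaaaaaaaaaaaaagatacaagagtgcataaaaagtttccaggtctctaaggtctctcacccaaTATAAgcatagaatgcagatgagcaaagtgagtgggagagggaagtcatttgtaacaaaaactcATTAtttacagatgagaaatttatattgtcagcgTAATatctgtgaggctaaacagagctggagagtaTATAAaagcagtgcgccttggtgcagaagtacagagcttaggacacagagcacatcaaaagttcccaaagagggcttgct
SST: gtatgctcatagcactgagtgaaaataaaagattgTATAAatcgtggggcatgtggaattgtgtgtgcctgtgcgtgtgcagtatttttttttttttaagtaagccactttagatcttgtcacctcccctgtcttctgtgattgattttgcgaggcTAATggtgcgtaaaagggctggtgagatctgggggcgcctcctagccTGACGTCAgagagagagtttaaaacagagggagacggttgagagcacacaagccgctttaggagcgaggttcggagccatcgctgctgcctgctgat
GHRL: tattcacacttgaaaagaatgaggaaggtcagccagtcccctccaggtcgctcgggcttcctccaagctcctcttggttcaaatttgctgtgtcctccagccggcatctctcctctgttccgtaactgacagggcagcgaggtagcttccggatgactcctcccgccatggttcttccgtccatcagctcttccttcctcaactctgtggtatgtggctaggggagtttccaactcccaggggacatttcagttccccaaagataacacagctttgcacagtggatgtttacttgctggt

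The sequences differed in these motifs. TATAA began 40 to 20 bases before a start in 5 of the 10 windows of the 7 genes, at -30 in INS, -30 in GCG, -29 in IAPP, -28 in PYY and -31 in PPY. Of all 35116 RefSeq windows, 3.91% held it there. The SST window had TATAA only at -215, and the GHRL window had none. TGACGTCA was found in SST alone, with its first base at -47, against 1.85% of all windows. TAAT or ATTA was found in 6 of the 10 windows and in 50.2% of all windows. It occurred 8 times in the IAPP window shown, at -214 and -81 in INS, at -98 and -64 in GCG, at -94 in SST and not in GHRL. CANNTG, the E-box read by factors such as NEUROD1, was present in 9 of the 10 windows and in 68.7% of all windows. A match of letters is a description of the sequence and was not tied to any value in the libraries.

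Levels were given as FPKM (fragments of a gene divided by its transcript length and by the mapped fragments of the library), a per-length scale on which genes can be set side by side, each with a lower and an upper bound from the authors' software. In live cells the order was SST, GCG, INS, GHRL, PYY, IAPP and PPY, and in processed cells it was SST, GCG, INS, GHRL and PYY, with IAPP and PPY both listed at 0. The bounds of neighbours in this order did not overlap in either library, apart from PYY and IAPP in live cells and the shared 0 of IAPP and PPY in processed cells. Thus 4 of the 7 genes were above 10 FPKM in both libraries and the other 3 were below 2 FPKM in both. The 7 genes summed to 511 FPKM live and 562 FPKM processed, a ratio of 1.10.

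**Figure D1:**
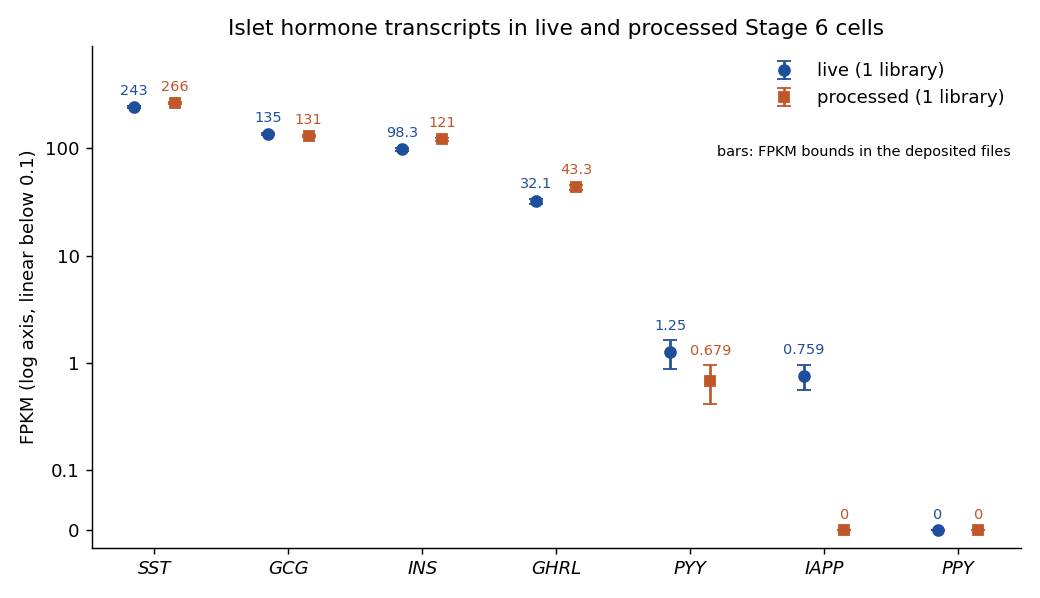
FPKM (log axis, linear below 0.1) of the 7 islet hormone genes in the live library (blue circles) and the processed library (orange squares), with bars for the bounds in the deposited files and no replicates. SST, GCG, INS and GHRL lie above 10 FPKM in both libraries, PYY lies near 1 FPKM, IAPP lies below 1 FPKM in live cells and at 0 in processed cells, and PPY is listed at 0 in both.

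INS encodes preproinsulin and lies on chromosome 11 from 2181009 to 2182571 (minus strand, GRCh37). Its FPKM was 98.3 in live cells, between bounds of 95.2 to 101, and 121 in processed cells (bounds 117 to 125). The processed value was higher and the bounds did not overlap. The ratio of processed to live was 1.23, with an interval of 1.18 to 1.29 that covers counting error only, and the log2 ratio of FPKM + 1 was 0.30. INS was the 679th gene by FPKM in live cells and the 504th in processed cells.

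The INS span overlaps 2 annotated neighbours on the same strand, IGF2 (insulin-like growth factor 2) and the readthrough gene INS-IGF2. IGF2 was listed at 1201 FPKM live and 1135 FPKM processed. In GENCODE 44, a later release than the authors used, INS shares no annotated exonic base with IGF2. In the deposited annotation the IGF2 span ends at 2182439, inside INS, so an exon of IGF2 reaches into INS there. The exonic bases that INS and IGF2 share in that annotation were not counted. INS-IGF2 was listed at 3.55e-06 and 9.17e-07 FPKM, although it shares 246 of the 656 exonic bases of INS (37.5%). Of the 832 distinct stretches of 80 nt, the read length, in annotated INS transcripts, 168 (20.2%) were also in INS-IGF2. Reads from those stretches could be given to either gene, and between INS and INS-IGF2 the estimates placed nearly all of the signal in INS. The antisense gene IGF2-AS, 11115 bp from INS, was at 11.3 FPKM live and 9.48 FPKM processed.

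IAPP, whose product amylin is stored and released with insulin, lies on chromosome 12 from 21507893 to 21532912 (plus strand). Its FPKM was 0.759 in live cells (bounds 0.554 to 0.964), and it was listed at 0 in processed cells with a status of OK. The live bounds have the width of about 55 fragments. On the longest annotated transcript of IAPP, 2015 nt, 3 fragments would have been worth 0.0176 FPKM in the processed library, and more on a shorter transcript. INS was 130-fold above IAPP in live cells on this per-length scale. Adult β cells make both hormones. Among the 2091 genes between 0.5 and 1 FPKM in live cells, 317 (15.2%) were listed at 0 in processed cells, and in the reverse direction 76 of 1575 genes (4.83%) were. A value of 0 at this level was therefore not particular to IAPP. IAPP lies within the span of SLCO1A2, an organic anion transporter gene on the opposite strand, which was at 2.07 FPKM live and 1.67 FPKM processed with overlapping bounds. In GENCODE 44, none of the 2151 exonic bases of IAPP overlapped an exon of SLCO1A2.

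GCG encodes proglucagon, the precursor of glucagon in α cells and of glucagon-like peptides in gut L cells, and lies on chromosome 2 from 162999392 to 163008914 (minus strand). Its FPKM was 135 in live cells, between bounds of 133 to 138, and 131 in processed cells (bounds 128 to 133). The bounds overlapped, the ratio was 0.966 (counting interval 0.941 to 0.992) and the log2 ratio was -0.05. Scaling the processed library by the median ratio of all expressed genes (0.932) turned this to 0.05, so no direction can be given for GCG. No gene overlapped its span, and the nearest gene with at least 1 FPKM in a library lay 65231 bp away.

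SST encodes preprosomatostatin and lies on chromosome 3 from 187386694 to 187388187 (minus strand). It had the highest level of the 7 genes, at 243 FPKM in live cells (bounds 239 to 248) and 266 FPKM in processed cells (bounds 261 to 271). The processed value was higher with separate bounds, and the ratio was 1.09 (counting interval 1.06 to 1.12), or 0.13 on the log2 scale. SST made up 47.6% of the summed hormone FPKM in live and 47.4% in processed cells. It was 1.80 times the level of GCG, the next gene in the order, in live cells and 2.04 times in processed cells. SST has 1 annotated transcript, of 607 nt, and none of its stretches of 80 nt occurred in another gene, so its value carries no sharing of fragments between isoforms or copies.

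GHRL encodes the precursor of ghrelin and obestatin, made in the stomach and in islet ε cells, and lies on chromosome 3 from 10327359 to 10334631 (minus strand). Its FPKM was 32.1 in live cells, between bounds of 30.5 to 33.6, and 43.3 in processed cells (bounds 41.2 to 45.4). The bounds were separate, and the ratio of 1.35 (counting interval 1.26 to 1.45; log2 ratio 0.42) was the highest of the 7 genes. It made up 6.28% of the hormone FPKM in live and 7.71% in processed cells.

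GHRL lies among overlapping genes. The antisense transcript gene GHRLOS was at 0.694 FPKM in live cells (bounds 0.605 to 0.783) and 1.29e-249 FPKM in processed cells (upper bound 0.00323). It covers 288 of the 2073 exonic bases of GHRL (13.9%), and 56 of the 2820 stretches of 80 nt in GHRL also occurred in it on the opposite strand. Whether fragments were counted by strand is not given in the sources used here, so reads from GHRL and GHRLOS over those bases cannot be told apart. GHRLOS2, also on the opposite strand, was at 0.282 FPKM live (bounds 0 to 1.45) and 1.81 FPKM processed (bounds 0 to 4.78), and its bounds overlapped. TATDN2, on the opposite strand, was at 8.87 FPKM live and 5.03 FPKM processed. It shares no exonic base with GHRL in GENCODE 44. In the deposited annotation its span ends at 10327480, inside GHRL, and the exonic bases shared there were not counted. SEC13, whose span starts 184 bp away, was at 42.5 and 44.8 FPKM.

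PPY and PYY encode a pair of related peptides of the neuropeptide Y family and lie 10270 bp apart on chromosome 17 (minus strand). PPY, from 42018172 to 42019836, was listed at 0 FPKM in both libraries. On its longest annotated transcript, 563 nt, 3 fragments would have been worth 0.0774 FPKM live and 0.0828 FPKM processed, and more on a shorter transcript. PYY, from 42030106 to 42081837, was at 1.25 FPKM in live cells (bounds 0.880 to 1.62) and 0.679 FPKM in processed cells (bounds 0.412 to 0.947). The bounds of PYY overlapped. Its plain ratio was 0.544, with a counting interval of 0.332 to 0.890 that lies below 1, and the log2 ratio of FPKM + 1 was -0.42. The widths of the bounds correspond to about 46 fragments in live and 26 in processed cells. Peptide YY is also a gut L cell hormone and is made early in the developing pancreas.

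**Figure D2:**
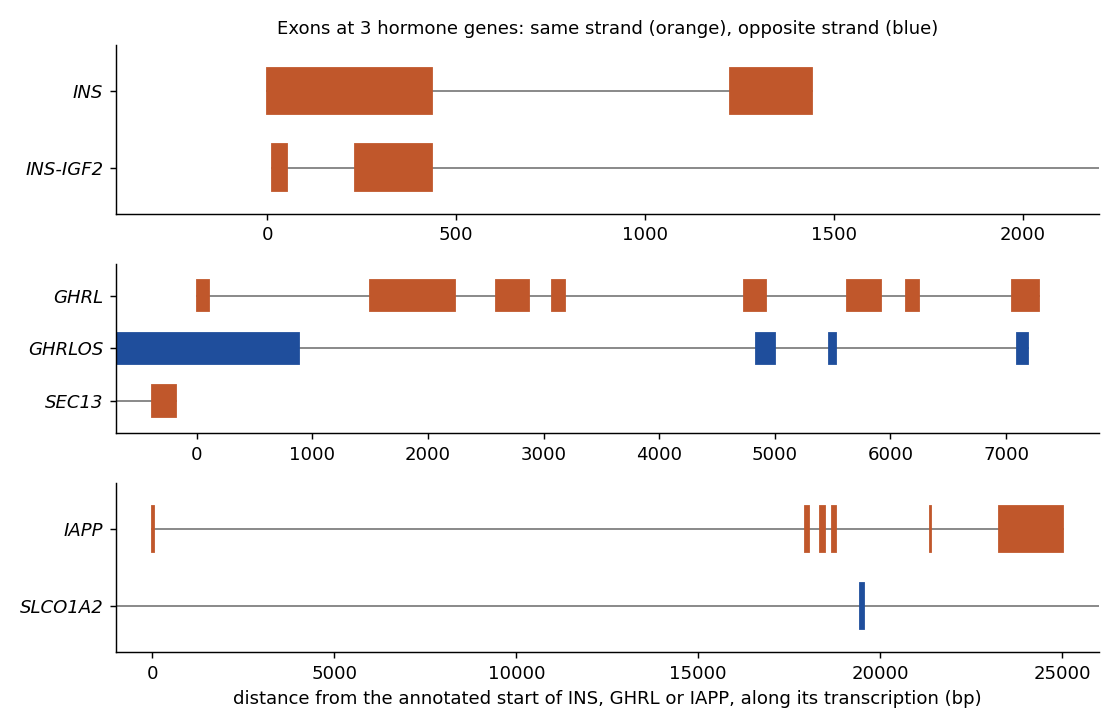
Exons annotated in GENCODE 44 (boxes), merged over the transcripts of INS, GHRL and IAPP and of genes beside or across them, against distance in bp from each gene's annotated start along its transcription. Genes on the same strand are orange and genes on the opposite strand are blue, and the exons of INS-IGF2 and GHRLOS share bases with INS and GHRL while those of SLCO1A2 share none with IAPP.

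Precision differed with level. The bounds had half-widths of 3.17% for INS, 1.90% for GCG, 1.95% for SST and 4.85% for GHRL in live cells, and of 29.5% for PYY and 27.0% for IAPP. In processed cells they were 3.15% for INS, 1.84% for GCG, 1.93% for SST, 4.84% for GHRL and 39.4% for PYY. Among 2024 live and 2086 processed genes with a single transcript, the bounds had the width of 2 SD of fragment counting on either side. On that reading the live values of INS, GCG, SST and GHRL rested on about 3975, 11131, 10530 and 1701 fragments. The number for a gene with several transcripts is approximate, because its bounds also hold the uncertainty of dividing fragments among them. Library preparation, fixation and culture differences lie outside these bounds.

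Of the 7 genes, 5 had an FPKM of at least 1 in a library and entered the counts; IAPP and PPY did not. Bounds were separate for 3 of the 5 (INS, SST and GHRL), all higher in processed cells, and overlapped for GCG and PYY. Over all 17326 genes at that level, 71.8% had separate bounds, 28.1% higher and 43.7% lower in processed cells. With the processed library scaled by the median ratio these shares became 34.8% higher and 35.7% lower, and INS, SST and GHRL were still higher with separate bounds. None of the 5 (0 of 5) passed a 2-fold difference, against 12.8% of all genes. That share was 20.8% on the plain ratio of FPKM and 5.01% among genes of at least 10 FPKM, the level of 4 of the 5, and the hormone count was 0 in each case. The median log2 ratio was 0.13 over the 5 and -0.09 over all genes, whose interquartile range ran from -0.39 to 0.25.

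Read against genes of a like level, the 4 well-expressed hormones lay between the 5th and 95th percentiles. Over all 17326 genes, whatever their level, INS was at the 77.2 percentile of log2 ratios, GHRL at 82.2, SST at 67.8, GCG at 54.0 and PYY at 23.4. Those with a mean of 1 to 3 FPKM ran from -1.56 to 1.71 between the 5th and 95th percentiles, so the percentiles over all genes do not compare like levels. Genes with a mean of 30 to 100 FPKM ran from -0.55 to 0.56 between the 5th and 95th percentiles, which held GHRL. Genes with a mean of 100 to 300 FPKM ran from -0.45 to 0.32. This range held INS (0.30, close to its upper end), SST (0.13) and GCG (-0.05).

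**Figure D3:**
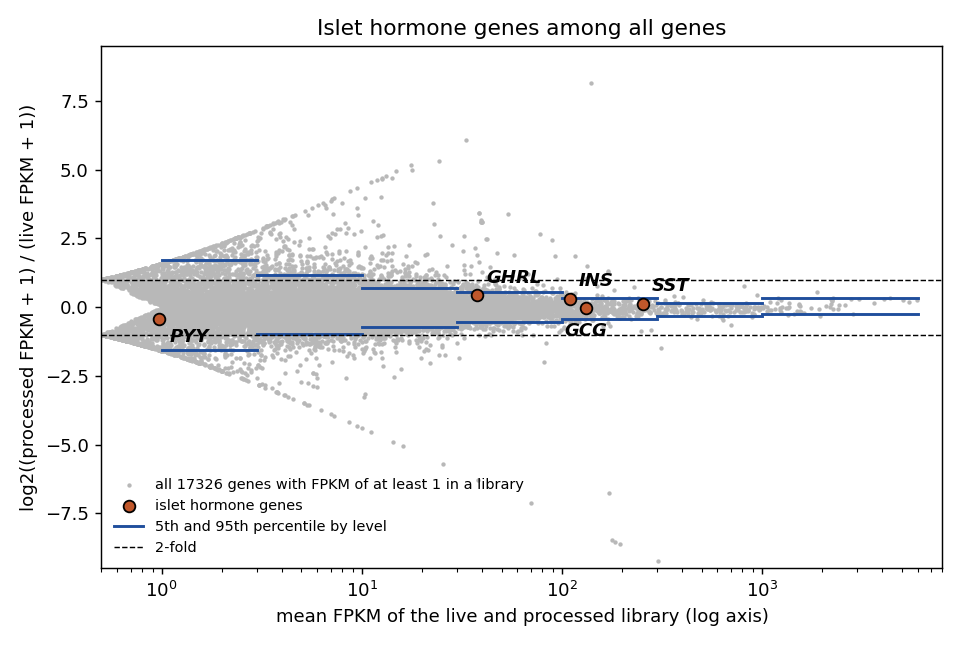
Log2 ratio of processed to live FPKM + 1 against mean FPKM of both libraries (log axis) for the 17326 genes with at least 1 FPKM in a library (grey) and the 5 islet hormone genes among them (orange). Blue lines give the 5th and 95th percentiles by level and dashed lines mark 2-fold, and GHRL, INS, GCG and SST lie between the blue lines.

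The makeup of the hormone transcripts followed from these values. The share of summed hormone FPKM was 19.2% for INS in live cells and 21.6% in processed cells, and 26.4% and 23.2% for GCG. GCG was thus 1.37 times INS in live cells and 1.08 times in processed cells, with GCG above INS in both. The ratio of INS to GHRL was 3.07 in live and 2.80 in processed cells. PYY made up 0.245% and 0.121%, and IAPP 0.149% in live cells.

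Genes with the most similar pair of values were found by distance on the log2(FPKM + 1) scale over the 2 libraries. CCT3 (97.2 and 122 FPKM) and TAGLN2 (99.7 and 126 FPKM) were nearest to INS, SF1 and ARPC3 to GCG, HMGN1 and SPINT2 to SST, AP3S1 and MLST8 to GHRL, and TBC1D30 and ZNF77 to PYY. With only 2 libraries this describes a matching level and little else.

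Hormone precursors are matured by prohormone convertases, carboxypeptidase E and amidating enzymes, and are stored with granins. Of 13 genes listed for processing and granules, GNAS among them, 12 had at least 1 FPKM in a library. Of the 12, 2 were higher and 6 lower in processed cells with separate bounds and 4 overlapped, with a median log2 ratio of -0.19. Over all genes, 28.1% were higher and 43.7% lower. After scaling by the median ratio the 12 became 4 higher, 4 lower and 4 overlapping, with a median of -0.11. GNAS, counted among the 6 lower, was at 855 and 806 FPKM. PAM, an amidating enzyme, overlapped with a live estimate marked as failed (70.7 FPKM, bounds 0 to 277). Its processed value was 55.4 FPKM. PCSK1, the convertase that cuts proinsulin, was at 3.03 FPKM live and 0.754 FPKM processed, a log2 ratio of -1.20 past 2-fold. On the plain ratio of FPKM without the pseudocount, CHGB was past 2-fold as well, making 2 of the 12, against 20.8% of all genes. PCSK2, which cuts proglucagon in α cells, was at 2.97 and 2.22 FPKM, with bounds that overlapped after that scaling. CPE, the carboxypeptidase, was at 146 FPKM live and 98.8 FPKM processed (log2 ratio -0.56). The granins SCG2 (69.7 and 47.8 FPKM) and CHGB (6.56 and 3.16 FPKM) were lower in processed cells, and SCG5, a chaperone of PCSK2, was higher (20.2 and 26.7 FPKM). CHGA, the general endocrine granin, was at 1794 and 1741 FPKM, with a processed estimate marked as failed (bounds 0 to 4712). MBOAT4, the acyltransferase that activates ghrelin, was at 0.590 FPKM live and 1.80e-20 FPKM processed, below the level counted.

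Transcription factors that control the hormone genes included 22 listed genes, of which 20 reached 1 FPKM. Their median log2 ratio was -0.13 with a range from -0.67 to 0.52. Separate bounds placed 3 higher and 11 lower in processed cells, 6 overlapped and 0 passed 2-fold. Over all genes at that level, 28.1% were higher, 43.7% lower and 12.8% past 2-fold. After scaling by the median ratio the split of the 20 regulators was even, with 6 higher, 6 lower and 8 overlapping, and the median was -0.03. PDX1, an activator of INS, IAPP and SST, was at 66.5 FPKM live and 72.1 FPKM processed (log2 ratio 0.11), and NEUROD1, an activator of INS, at 13.1 and 15.2 FPKM (0.20). PAX4, needed for the β and δ lineages, was at 9.04 and 13.4 FPKM (0.52). HHEX, the δ cell factor, was at 41.5 and 41.0 FPKM with bounds that overlapped as deposited and were separate, higher in processed cells (0.08), after that scaling. MAFA, which marks mature β cells, was at 0.119 FPKM in live cells and listed at 0 in processed cells.

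Receptors for the islet hormones were at lower levels, with 9 of the 19 listed genes found reaching 1 FPKM. Of these, 1 was higher and 6 were lower in processed cells with separate bounds, 2 overlapped, and the median log2 ratio was -0.39. Over all genes at that level, 28.1% were higher and 43.7% lower. With the pseudocount 0 of the 9 receptors passed 2-fold, against 12.8% of all genes. On the plain ratio 3 did, NPY1R, NPY5R and RAMP2, all lower in processed cells, against 20.8% of all genes. Scaling by the median ratio gave 2 higher, 6 lower and 1 overlapping, with a median of -0.31. The somatostatin receptor SSTR2 was at 7.03 FPKM live and 4.08 FPKM processed (log2 ratio -0.66), SSTR1 at 4.44 and 3.15 FPKM, and SSTR4 was listed at 0 in both. INSR, the insulin receptor, was at 7.87 and 7.91 FPKM, which that scaling moved from overlapping to separate bounds (0.10). NPY1R, a receptor of the neuropeptide Y family, was at 7.46 and 3.28 FPKM (-0.98). RAMP1, which forms amylin receptors with the calcitonin receptor CALCR, was at 10.5 and 14.9 FPKM (0.47), and CALCR at 0.352 and 0.337 FPKM. GCGR, the glucagon receptor, was at 0.578 and 0.328 FPKM, and the ghrelin receptor GHSR at 0.160 FPKM in live cells and listed at 0 in processed cells.

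Peptide genes of the same families as the islet hormones were mostly near or below 1 FPKM. Among 21 relatives, 4 reached 1 FPKM, of which 3 were lower in processed cells with separate bounds (43.7% of all genes were) and SCT overlapped. These 3 were IGF2, which turned higher (log2 ratio 0.02) after scaling by the median ratio, the adrenomedullin gene ADM (24.1 and 15.0 FPKM) and ADCYAP1, a neuropeptide of the glucagon family (1.76 and 0.00340 FPKM, log2 ratio -1.46). As with IAPP, 8 of the 21 were above 0.01 FPKM in live cells and below it in processed cells, including its relative CALCA (0.680 FPKM and listed at 0), GIP (0.704 and 0.00219 FPKM), NPY (0.814 FPKM and listed at 0) and GHRH (0.796 and 0.00102 FPKM). Between 0.5 and 2 FPKM in live cells, 6 of 10 relatives and 17.4% of all 4143 genes were under 0.01 FPKM in processed cells, and between 0.05 and 0.5 FPKM 2 of 3 relatives and 48.4% of all 5478 genes did. CALCB, also a relative of IAPP, was at 0.612 and 0.969 FPKM with overlapping bounds, which give no direction. ADM2, another of the 21 relatives, was at 0.685 FPKM live (bounds 0.603 to 0.767) and 0.975 FPKM processed (bounds 0.873 to 1.08). It was thus higher with separate bounds, at a level below that counted, so not all relatives were lower.

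**Figure D4:**
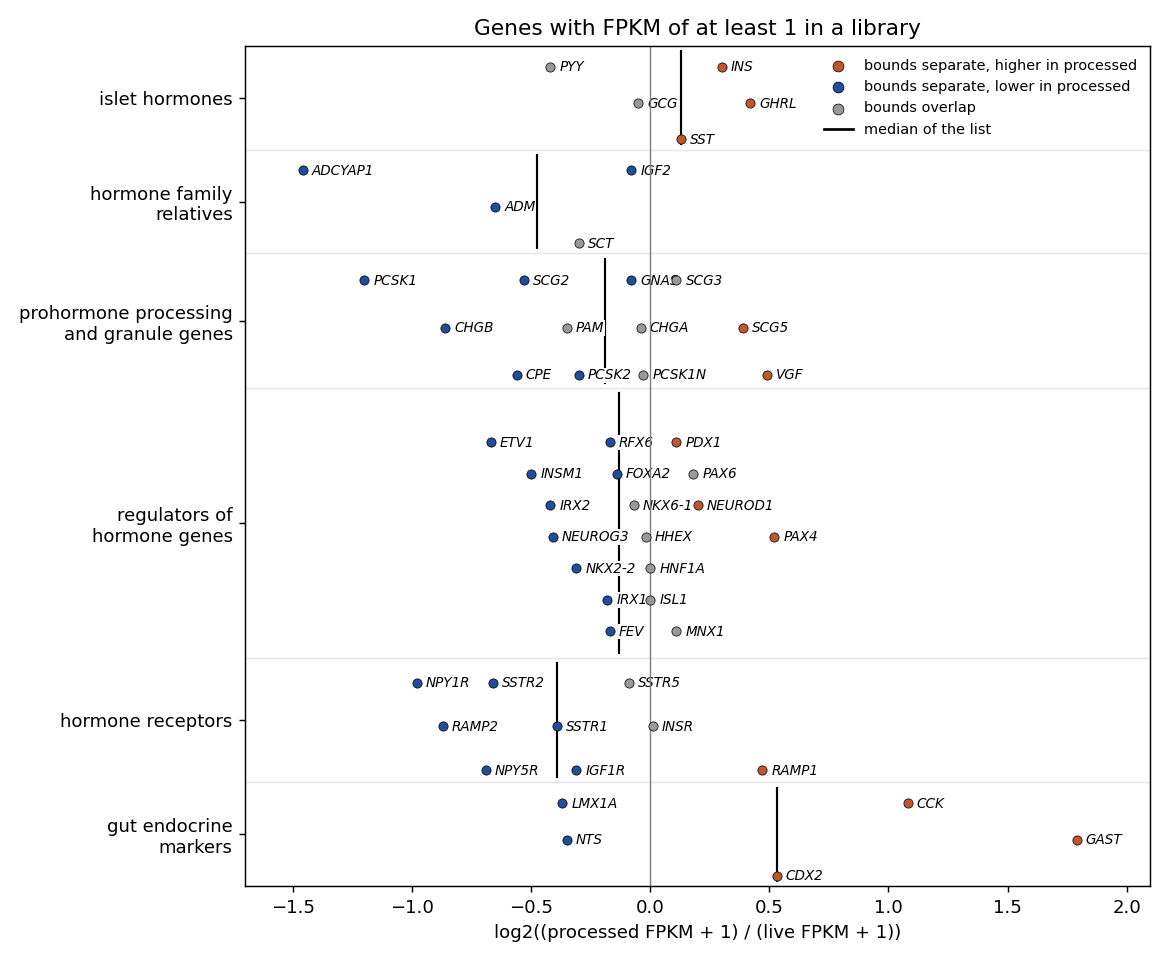
Log2 ratio of processed to live FPKM + 1 for genes with at least 1 FPKM in a library, for the islet hormones and for their family relatives, processing and granule genes, regulators, receptors and gut endocrine markers. Orange and blue mark separate bounds higher and lower in processed cells, grey marks overlapping bounds and the black line is the list median, which was 0.13 for the hormones and below 0 for the relatives, granule genes, regulators and receptors, also after scaling by the median ratio, and 0.53 for the gut endocrine markers.

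The labels give a culture that contains insulin-expressing cells, and the markers of other cell types were read in the same libraries. The islet endocrine markers were CHGA, CHGB, PCSK1, SCG2, NEUROD1 and INSM1. Of these, NEUROD1 was higher in processed cells with separate bounds, and CHGB, PCSK1, SCG2 and INSM1 were lower. The bounds of CHGA overlapped, with a processed estimate marked as failed. The summed FPKM of 6 liver markers was 2592 in live and 2832 in processed cells, of 6 duct markers 666 and 638, of 6 pluripotent markers 182 and 151, of 6 stroma markers 89.9 and 74.2 and of 6 acinar markers 22.1 and 24.0, with the acinar lipase PNLIP at 0 in both. The 6 gut endocrine markers summed to 41.3 FPKM live and 63.2 FPKM processed, with 3 of the 5 that reached 1 FPKM higher and 2 lower with separate bounds, and 4 of 6 liver markers were higher and 1 lower. Separate bounds placed 2 duct markers higher and 3 lower, 1 stroma marker higher and 4 lower, 1 pluripotent marker higher and 3 lower, and 1 acinar marker in each direction. Over all 17326 genes with at least 1 FPKM in a library, 28.1% were higher and 43.7% lower. Counts from so few markers were not read as a result for any cell type. Members of a list could differ in direction, as with the pluripotency genes NANOG (1.27 and 7.34 FPKM) and TDGF1 (5.54 and 1.46 FPKM), and the stroma genes PDGFRB (4.26 and 1.17 FPKM) and ACTA2 (6.10 and 2.43 FPKM) were both past 2-fold lower. The part of these cell types in the hormone values was not tested. Of all genes, 16004 reached 1 FPKM in the live and 15957 in the processed library.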

How the data were processed

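RNA-seq of 1 live and 1 processed sample of H1 Stage 6 cells was used. Paired-end reads (80 nt) were mapped by the authors on GRCh37/hg19 using GENCODE genes, and they deposited FPKM with bounds and a status per gene; the submitters' processing notes name STAR 2.2.0c and Cufflinks 2.0.2. FPKM is normalized, counts are not used here, and p-values are not given because each condition has 1 library.

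Genes were joined by identifier in Python 3.11.15 with numpy 2.4.6, pandas 2.3.3 and matplotlib 3.10.9. Log2 ratios used a pseudocount of 1, which understates changes of low genes, and counts took genes with FPKM of at least 1 in a library. Strands, exons and transcripts came from GENCODE 44 mapped to GRCh37, a later release than the authors used, which held 94.5% of identifiers (52723). The FPKM of 1 fragment was read from genes with a single transcript of at least 300 nt, less 170 nt, over the length in kb. Its median was 0.0101 in live and 0.0109 in processed cells from the bounds, and 0.0100 and 0.0107 from steps of low values. Promoter motifs were searched on both strands, TATAA on the gene's strand; TATAA and TAAT can overlap. All 7 genes had RefSeq windows. Calculations were tested on simulated data.

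The genes and lists were chosen with earlier results of these data known. Genes named are the 7 hormones, listed genes, overlapping or nearest expressed genes, and the 2 genes nearest each hormone in level. Alternatives covered pseudocount, filter and scaling. Results for some listed genes are not reported here, although the counts and medians of their list hold them. Of 20 receptor symbols, 19 were found as written or by an older symbol.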

Additional observations from a re-analysis of the deposited data

How the results depend on the processing

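Under 5 alternatives (a pseudocount of 0.1, no filter, FPKM of at least 10, rescaling to the same sum and scaling by the median ratio), INS, SST and GHRL kept higher processed values with separate bounds wherever this was counted, and 0 of the hormone genes that met the filter passed 2-fold. With a pseudocount of 0.1 and no filter together, chosen after seeing the data, the count was 1: IAPP, listed at 0 in processed cells, whose log2 value went from -0.81 to -3.10 with that pseudocount. Without a filter IAPP became a 4th gene with separate bounds. The median log2 ratio moved from 0.13 to 0.21 with FPKM of at least 10, to 0.00 with no filter, which adds IAPP and PPY, and to 0.23 with scaling by the median ratio. The summed FPKM ratio moved from 1.10 to 1.13 with rescaling to the same sum and to 1.18 with scaling by the median ratio. A pseudocount of 0.1 took PYY from -0.42 to -0.79 and the count of all genes past 2-fold from 2210 to 3468 of 17326. Of all compared values, 27 stayed within the counting interval or count limit and 11 moved. The 27 include values that could not move, such as the log2 ratio of PPY, listed at 0 in both libraries, and of IAPP under scaling. They also include the change from 3 to 4 genes with separate bounds and that of PYY with a pseudocount of 0.1, so their number is no measure of stability. No paired analysis was possible because each condition has 1 library, and leaving out a library leaves nothing to compare. Counting error limits PYY and IAPP most.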

Other observations

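The gut hormone genes GAST and CCK, which some cells of the developing pancreas also express, were past 2-fold among the 5 gut endocrine markers that reached 1 FPKM. Over all genes at that level, 12.8% were past 2-fold, or 20.8% on the plain ratio. TPH1, the enzyme of serotonin synthesis and the 6th marker, was at 0.526 FPKM in live cells (bounds 0.404 to 0.648) and 0.186 FPKM after processing (0.148 to 0.225). GAST (gastrin) was at 4.43 FPKM in live cells (bounds 3.66 to 5.20) and 17.7 FPKM after processing (16.1 to 19.3), which gave a log2 ratio of 1.79. CCK (cholecystokinin) was at 4.79 FPKM (bounds 4.02 to 5.56) and 11.2 FPKM (bounds 10.3 to 12.2), a log2 ratio of 1.08. Genes with a mean of 3 to 10 FPKM, where CCK lay, had a 95th percentile of 1.18, above the CCK value. At 10 to 30 FPKM, where GAST lay, the 95th percentile was 0.68, below the GAST value. Neither difference has a replicate check. The span of JUP, on the opposite strand, overlaps GAST and was at 64.0 FPKM live and 50.3 FPKM processed. The intestinal factor CDX2 was at 14.1 and 20.9 FPKM, while the neurotensin gene NTS was at 13.5 and 10.4 FPKM.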
